A study of Rattus norvegicus with 3 samples.

Results

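The genes described here are 10 targets or partners of the transcription factor p53 that are linked to growth arrest: Cdkn1a, Gadd45a, Mdm2, Phlda3, Tp53inp1, Ccng1, Sesn1, Bax, Eda2r and Btg2. They were chosen by name, and a gene was measured where a probe set of the array was annotated with that symbol alone. This held for 8 of the 10, among 14506 genes with such a probe set; Eda2r and Btg2 were not analysed here. The samples were soleus, a slow postural muscle of the hind limb, from brown rats aged 7 weeks. All groups were irradiated continuously for 2 weeks, with 50 mSv absorbed in all. Irradiation was the only treatment of group Ct, group DN had denervation in addition, and group TS had tail suspension in addition, which takes the load off the hind limbs. RNA from 6 rats was pooled for each group and measured on 1 array (Affymetrix Rat Gene 1.0 ST), so no spread between animals and no test were available, and each difference describes these pools only. An unirradiated group was not analysed here, so the part of irradiation in the values below cannot be told apart.

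p53 is held at a low level in resting cells by the ubiquitin ligase Mdm2, and when it is stabilised it raises transcription of genes that stop the cell cycle, curb growth signalling or start apoptosis. Its best known target, Cdkn1a, encodes p21, which inhibits cyclin-dependent kinases. In skeletal muscle Cdkn1a and Gadd45a are also known to rise without p53: p21 accompanies the withdrawal of myoblasts from the cell cycle, and Gadd45a is induced in denervated muscle through Hdac4 and, in other forms of atrophy, through the transcription factor Atf4.

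The bases upstream of a gene's start are shown for 4 of these genes because a p53 half-site, the 10-base unit of p53 binding, was found in them, while their expression values ran from the highest to the lowest differences of the set. The 250 bases before the annotated start were taken from RefSeq (build GRCr8), which held Cdkn1a, Gadd45a, Mdm2, Phlda3, Ccng1, Sesn1, Eda2r and Btg2 and so 6 of the 8 measured genes, and each is written 5′ to 3′ on the strand of its gene with the half-site in capitals.
Cdkn1a, chr20:7150682-7150931, strand plus: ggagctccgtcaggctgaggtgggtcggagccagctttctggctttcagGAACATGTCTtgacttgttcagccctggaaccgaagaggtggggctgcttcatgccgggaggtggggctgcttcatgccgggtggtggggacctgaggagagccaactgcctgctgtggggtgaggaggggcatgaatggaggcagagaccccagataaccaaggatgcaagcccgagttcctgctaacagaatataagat
Gadd45a, chr4:97486800-97487049, strand minus: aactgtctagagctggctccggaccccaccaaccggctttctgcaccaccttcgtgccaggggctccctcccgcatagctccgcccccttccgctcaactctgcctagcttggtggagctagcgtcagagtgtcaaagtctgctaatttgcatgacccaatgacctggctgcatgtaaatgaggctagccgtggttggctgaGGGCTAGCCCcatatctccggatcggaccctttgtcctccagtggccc
Ccng1, chr10:25684877-25685126, strand minus: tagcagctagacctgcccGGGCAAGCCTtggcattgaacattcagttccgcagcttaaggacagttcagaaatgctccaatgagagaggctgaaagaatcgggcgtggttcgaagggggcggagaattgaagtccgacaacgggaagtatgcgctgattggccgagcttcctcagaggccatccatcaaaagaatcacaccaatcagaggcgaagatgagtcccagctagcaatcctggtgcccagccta
Sesn1, chr20:46948469-46948718, strand plus: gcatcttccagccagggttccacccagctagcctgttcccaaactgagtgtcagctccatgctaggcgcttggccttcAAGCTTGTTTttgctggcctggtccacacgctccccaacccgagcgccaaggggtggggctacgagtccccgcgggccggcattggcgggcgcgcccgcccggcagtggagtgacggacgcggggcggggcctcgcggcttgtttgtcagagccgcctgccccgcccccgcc
The half-site, searched on both strands under its consensus name, was present in 4 of the 8 upstream windows and in 6.64% of 33469 RefSeq windows of the same length. It began 201 bases before the start of Cdkn1a (GAACATGTCT), 48 before Gadd45a (GGGCTAGCCC), 232 before Ccng1 (GGGCAAGCCT) and 172 before Sesn1 (AAGCTTGTTT). The E-box CANNTG, which myogenic factors can bind and which reads alike on both strands, occurred in 1 of the 8 windows (Cdkn1a, CAACTG, 98 bases before the start) and in 65.5% of all windows. The ATF4 element TGATGNAA was in 0 of the 8 and 3.40% of all windows, and the FOXO element GTAAACA in 2 of the 8 (Mdm2 and Eda2r) and 3.21%. The GC box GGGCGG was in 7 of the 8 and 30.5%, and the TATA box TATAAA in 1 of the 8 (Eda2r) and 12.9%, all on both strands. These are matches of letters within a short window, not measured binding. Because the genes were chosen as targets or partners of p53, their share of windows with a half-site tests nothing. Of the genes with a half-site, Cdkn1a and Gadd45a had the highest DN minus Ct differences of the set and Sesn1 the lowest.

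Expression values are log2 values from robust multi-array averaging (RMA), with array medians of 6.32 in Ct, 6.33 in DN and 6.35 in TS over 29170 probe sets. A difference of 1 is a 2-fold difference, and members were counted past a limit of 1.5-fold. The background for each count is the 10154 genes with a mean of at least 5.72, the 30th percentile of gene means. All 8 measured members read above this limit on all 3 arrays. The slow-fibre and skeletal muscle markers of the labelled tissue were all bright, with 6 of 6 and 5 of 5 above the limit on each array and none under 11.3.

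Cdkn1a and Gadd45a were the members that stood furthest apart between the pools. Cdkn1a read 8.50 in Ct, 12.45 in DN and 10.71 in TS. The denervated pool was highest, the suspended pool lay between and the pool with irradiation alone was lowest. DN was above Ct by 3.95, or 15.4-fold, which ranked 6 of 10154 genes from the top, and TS was above Ct by 2.21, or 4.63-fold, which ranked 13. Gadd45a, whose product binds PCNA and the kinase Map3k4 and is known to slow the cell cycle and to remodel transcription in denervated muscle, read 9.86 in Ct, 13.01 in DN and 11.21 in TS. The order of the pools was that of Cdkn1a, with differences of 3.15 (8.89-fold, rank 19) for DN minus Ct and 1.35 (2.55-fold, rank 58) for TS minus Ct. Set directly against TS, without the Ct array, DN was higher by 1.74 for Cdkn1a and by 1.80 for Gadd45a, or 3.33-fold and 3.48-fold. The Gadd45a value in DN lay within a log2 unit of the highest value on that array, 13.9, a range where differences can be compressed.

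**Figure D1:**
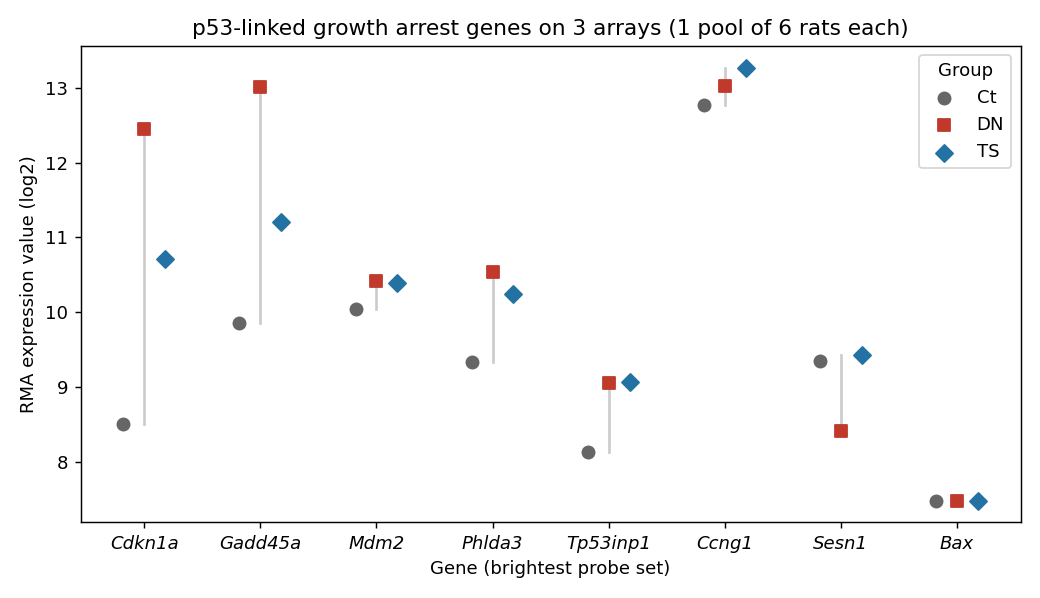
RMA expression values (log2, vertical axis) of the 8 measured genes on the Ct (grey circles), DN (red squares) and TS (blue diamonds) arrays, each 1 pool of 6 rats; grey lines span the range of the 3 values. Cdkn1a runs from 8.50 in Ct to 12.45 in DN and Gadd45a from 9.86 to 13.01, Sesn1 is lowest in DN at 8.42, and Bax is at 7.48 on all arrays.

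Phlda3 and Tp53inp1 stood above Ct in both other pools. Phlda3, a small protein that competes with Akt for membrane lipids and so restrains Akt, read 9.34 in Ct, 10.54 in DN and 10.25 in TS. Both DN and TS were higher, by 1.20 (2.30-fold) in DN and 0.91 (1.88-fold) in TS. Tp53inp1, a stress protein that promotes p53 activity and autophagy, read 8.13 in Ct, 9.05 in DN and 9.06 in TS. It was higher by 0.91 (1.88-fold) in DN and 0.93 (1.90-fold) in TS. Between DN and TS these genes differed little, by 0.29 for Phlda3 and -0.02 for Tp53inp1, and the sign of the latter turned under 4 of the scalings tried.

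Mdm2 and Ccng1 lay above Ct by less than 1.5-fold. Mdm2, the ligase that marks p53 for breakdown and is itself a p53 target, read 10.04 in Ct, 10.42 in DN and 10.39 in TS, with differences of 0.38 and 0.34. Ccng1, which encodes cyclin G1, a partner of protein phosphatase 2A that acts back on Mdm2, read 12.78 in Ct, 13.03 in DN and 13.27 in TS. It was highest in the suspended pool, by 0.50 (1.41-fold) over Ct against 0.26 for DN. With a trend on expression removed or with quantile normalization the TS difference was 0.59 and just past the limit. Centring each array on its median lowered it, to 0.47 over all probe sets and 0.36 over the genes compared. All 3 values of Ccng1 lay near the top of the array's range.

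Sesn1 was the only one of the 8 that read lower in DN than in Ct. It encodes sestrin 1, which restrains mTORC1 signalling and protects against oxidative stress, and it read 9.34 in Ct, 8.42 in DN and 9.43 in TS. The denervated pool was low and the other pools lay close together. DN differed from Ct by -0.93 (1.90-fold lower) and from TS by -1.01 (2.01-fold lower), whereas TS minus Ct was 0.08, with a sign that turned when a trend on expression was removed (-0.0088) or when each array was centred on its median over the genes compared (-0.05). Bax, a pore-forming protein of mitochondrial apoptosis, read 7.48 on each array, and its dimmer probe set read 7.27 in Ct, 7.27 in DN and 7.34 in TS. Median polish, the summary step of RMA, can return equal values, and 42.9% of the 10154 genes were equal on Ct and DN, so this does not show that Bax did not differ.

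In DN minus Ct, 4 of the 8 members were at least 1.5-fold higher (Cdkn1a, Gadd45a, Phlda3 and Tp53inp1), against 4.93% of all genes compared, and 1 was at least 1.5-fold lower (Sesn1), against 5.53%. The median of the 8 differences was 0.65, beside 0.00 over all genes. In TS minus Ct, 4 members were at least 1.5-fold higher (Cdkn1a, Gadd45a, Phlda3 and Tp53inp1), against 5.89%, and none lower, against 2.68%, with a median of 0.70 beside 0.02. The 2 comparisons share the Ct array. In DN minus TS, which does not use it, Cdkn1a and Gadd45a were at least 1.5-fold higher, against 3.20%, and Sesn1 lower, against 5.93%, with a median of 0.02 beside -0.0028. Past 1.5-fold in either direction were thus 5, 4 and 3 of the 8 members in DN minus Ct, TS minus Ct and the direct comparison, against 10.5%, 8.57% and 9.13% of all genes. At 2-fold the members numbered 3, 2 and 3, against 4.47%, 2.06% and 2.94%, and at 3-fold 2, 1 and 2, against 1.63%, 0.532% and 1.00%. Because the members were chosen with results of these arrays known, the counts describe them and test nothing.

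**Figure D2:**
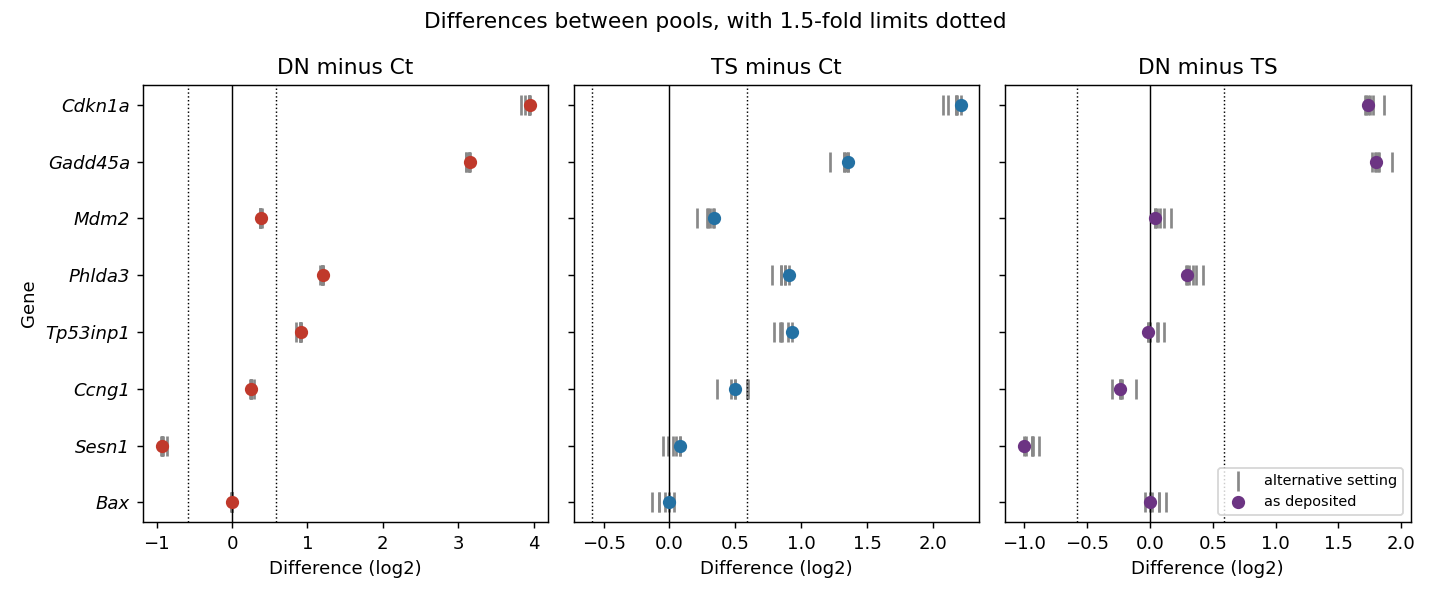
Difference between pools (log2, horizontal axis; scales differ between panels) for each of the 8 genes, with DN against Ct, TS against Ct and DN against TS in panels from left to right. Filled circles are the deposited values, grey ticks the other processing settings and dotted lines the 1.5-fold limits; in DN minus TS only Cdkn1a (1.74), Gadd45a (1.80) and Sesn1 (-1.01) lie past a limit.

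Among genes of the same families as the members, Gadd45b stood above Ct in both other pools and Phlda1 stood below it in DN. Of 15 paralogs bright enough to compare, 4 were at least 1.5-fold higher and 2 lower in DN than in Ct, with a median of 0.15, and 5 were higher and none lower in TS, with a median of 0.17. Among all genes compared, 4.93% passed 1.5-fold upward and 5.53% downward in DN, and the median difference was 0.00. In TS these shares were 5.89% and 2.68%, and the median difference was 0.02. Gadd45b, a stress sensor of the same family as Gadd45a, read 7.89 in Ct, 9.66 in DN and 9.13 in TS. It was higher than in Ct by 1.77 in DN and 1.24 in TS. The third family member, Gadd45g, read 7.06, 7.63 and 8.28 in Ct, DN and TS, so that here the suspended pool was highest, with differences of 0.57 and 1.23. Sesn3, another sestrin, read 9.11 in Ct, 9.87 in DN and 9.08 in TS, so that DN lay above Ct by 0.76 where Sesn1 lay below. Ccng2, a FOXO-responsive relative of Ccng1, read 9.88, 10.54 and 9.61, above Ct by 0.67 in DN and at -0.27 in TS. Phlda1, a relative of Phlda3, stood at -1.5 in DN and 0.08 in TS. Among the inhibitors related to p21, Cdkn1b (p27) differed by 0.08 in DN and 0.03 in TS, and Cdkn1c (p57) by -0.15 and 0.52. Mdm4, the partner of Mdm2, read 8.95 on all arrays, which as for Bax does not show that it did not differ. Btg1, a relative of Btg2, differed by 0.19 and 0.17. Btg3 (0.71 in DN), Tob2 (-0.63 in DN and 0.72 in TS), Tnfrsf19 (0.76 in TS) and the apoptosis gene Bak1 (1.04 in TS) were the other paralogs past 1.5-fold.

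Ephx1 had the largest difference in DN among further p53 targets. Of 40 named, 30 were measured and 28 were bright enough to compare. In DN, 3 were at least 1.5-fold higher and 1 lower, where 10.5% of all genes passed the limit in either direction, with a median of 0.00, and 16 read the same on both arrays. In TS, none was higher and 1 lower, where 8.57% of all genes passed, again with a median of 0.00, and 11 read the same. Ephx1, a microsomal epoxide hydrolase, read 10.70 in Ct, 12.42 in DN and 9.96 in TS, so the denervated pool was high and the suspended pool low, with differences of 1.72 and -0.73. Plk2, a polo-like kinase, was higher by 0.79 in DN and stood at 0.05 in TS. Cd82, a tetraspanin, was higher by 0.60 in DN, a difference just past the limit, and Dcxr, a carbonyl reductase, was at -0.65. The apoptotic targets Bbc3 and Pmaip1 read 7.39 and 6.52 on all arrays, and the damage-recognition gene Xpc read 8.50 on all arrays. As for Bax, equal values do not show that these genes did not differ. Rrm2b, which supplies nucleotides for repair, read 8.74 in Ct, 8.74 in DN and 8.66 in TS. The p53-induced phosphatase Ppm1d differed by 0.07 in DN and 0.27 in TS.

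Of 15 regulators of p53 compared, 2 were at least 1.5-fold higher in DN and 3 in TS, and none was lower in either. Of all genes, 4.93% were higher in DN and 5.89% in TS. The medians of the 15 were 0.00 and 0.17. The p53 relative Tp63 read 6.21 in Ct, 7.74 in DN and 7.24 in TS, higher by 1.52 and 1.03. Hipk2, a kinase that phosphorylates p53, read 8.47, 9.46 and 9.73, higher by 0.99 and 1.26, and Trim24, a ligase for p53, was higher by 0.70 in TS and read 7.28 in both Ct and DN. The damage kinase gene Atm differed by 0.00 in DN and 0.13 in TS, and Chek1 (5.64) and Chek2 (4.19) lay below the brightness limit. Among 23 DNA repair genes compared, none passed 1.5-fold in DN or in TS, with medians of 0.00 and 0.07 and a highest difference of 0.55, in TS. With 10.5% and 8.57% of all genes past the limit, few genes of a list of this size would be past it at the background share, so nothing is read from this count.

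Among partners of p21 and Gadd45a in the cell cycle, Cdc25a and Rb1 had the highest differences in DN. Of 14 cyclins, kinases and related genes compared, 1 was at least 1.5-fold higher and 2 lower in DN, with a median of -0.12, and 3 were higher and none lower in TS, with a median of 0.20. Cdc25a, a phosphatase that opposes the kinase block of p21, was higher by 1.60 in DN and 0.73 in TS, and Cdc25b stood at -0.80 and -0.32. Pcna, the replication clamp bound by both p21 and Gadd45a, differed by 0.16 and 0.22. Of 9 inhibitors and pocket proteins, 2 were at least 1.5-fold higher and 1 lower in DN, and none passed the limit in TS. For both lists, the shares of all genes higher and lower were 4.93% and 5.53% in DN, and 5.89% and 2.68% in TS. Rb1, the retinoblastoma protein that p21 keeps in its growth-blocking state, read 8.78 in Ct, 9.80 in DN and 9.20 in TS, higher by 1.02 and 0.41. Cdkn2b (p15) was higher by 0.77 in DN and equal in Ct and TS.

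Of 21 apoptosis genes compared, some also in the lists above, 3 were at least 1.5-fold lower in DN and none higher. Over all genes the shares were 5.53% and 4.93%. The median of the 21 was 0.00. The 3 lower in DN were Endog (-1.26), a mitochondrial nuclease, Aifm1 (-0.80), a flavoprotein of the intermembrane space, and Cycs (-0.66), cytochrome c, which also serves respiration. With all probe sets of a gene averaged, Bnip3 (-0.65) was past the limit as well. In TS, 2 were higher and none lower, against 5.89% and 2.68% of all genes, again with a median of 0.00. The higher ones were Bid, by 1.08, and Bak1, by 1.04, both of which promote pore formation. With each array centred on its median over all probe sets, 1 was lower in TS (Cycs, -0.61), and with centring over the genes compared 2 were (Cycs and Aifm1). In DN, Bid and Bak1 stood at 0.21 and 0.28.

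**Figure D3:**
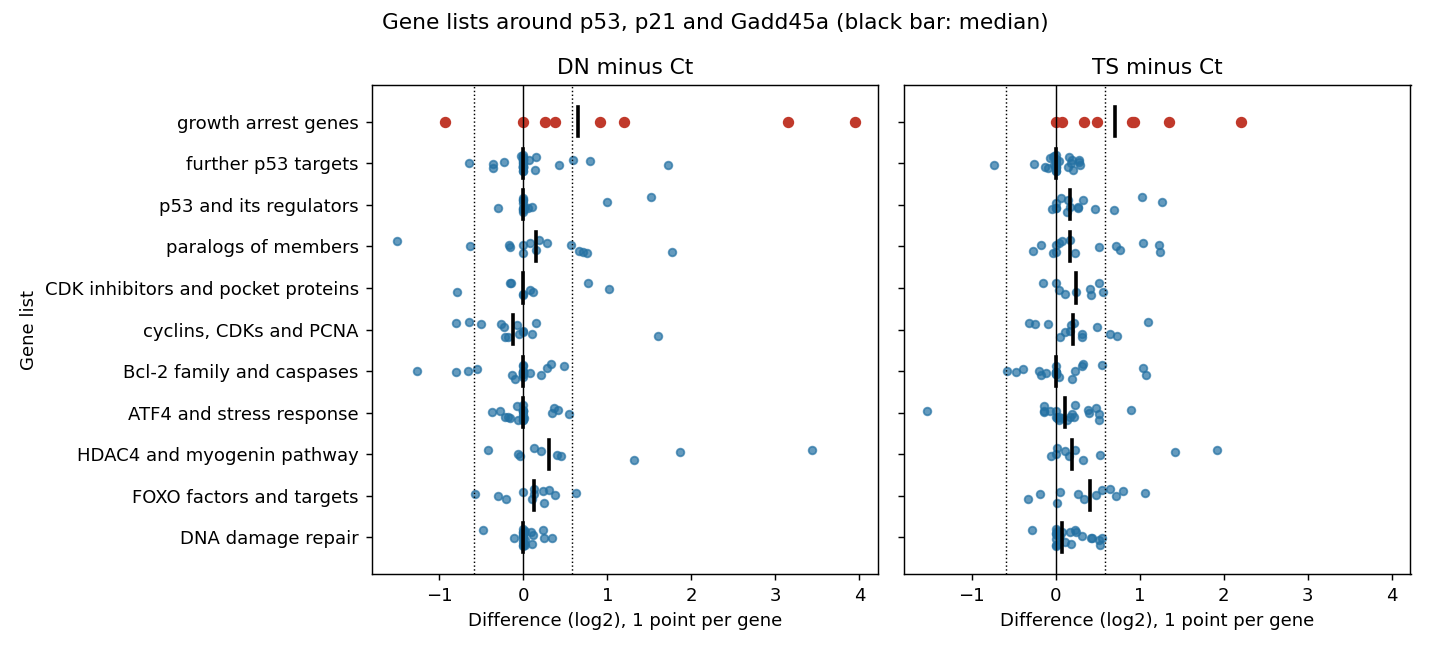
Differences (log2, horizontal axis) in DN minus Ct and TS minus Ct for the 8 growth arrest genes (red) and for genes of 10 lists around p53, p21 and Gadd45a (blue, 1 point per gene above the brightness limit, moved vertically so that points can be told apart). Black bars are medians and dotted lines the 1.5-fold limits. The median of the 8 genes, chosen with results of these arrays known, is 0.65 and 0.70. That of further p53 targets is 0.00 in both panels. Of these 28, 16 are equal on both arrays in DN minus Ct and 11 in TS minus Ct.

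Hdac4, Myog and Myod1 read higher in DN than in Ct. In the list of Hdac4 and myogenin signalling, 3 of 10 genes were at least 1.5-fold higher in DN and 2 in TS, and none was lower. Of all genes, 4.93% were higher in DN and 5.89% in TS. The medians of the 10 were 0.31 and 0.19. Hdac4, a histone deacetylase that rises on denervation, read 7.80 in Ct, 9.12 in DN and 8.12 in TS, higher by 1.32 in DN and at 0.33 in TS. The myogenic factors Myog and Myod1 were higher by 1.86 and 3.44 in DN and by 1.42 and 1.92 in TS, while Myf6, another myogenic factor, differed by 0.40 and 0.53. In the list of Atf4 and stress genes, none of 22 passed 1.5-fold in DN, where 10.5% of all genes did. The median was 0.00 and 9 genes were equal on both arrays. In TS, where 8.57% of all genes passed, 1 was higher and 1 lower, with a median of 0.11. Few genes of a list of this size would pass at the background shares, so nothing is read from these counts. Atf4 read 10.50 in Ct, 10.31 in DN and 10.67 in TS, its target Atf3 stood at -0.27 and -1.53, and the serine synthesis gene Psat1 at 0.41 and 0.90. Of 12 FOXO factors and targets, 1 was at least 1.5-fold higher in DN and 4 in TS, against 4.93% and 5.89% of all genes. None was lower, and the medians were 0.13 and 0.41. Sod2 stood at -0.58 in DN, just short of the limit. It was past the limit, at -0.59, with each array centred on its median over all probe sets or with a trend on expression removed. Pik3ip1, an inhibitor of phosphoinositide 3-kinase, was higher by 0.62 in DN and 1.07 in TS, Bcl6 by 0.81, Klf15 by 0.72 and Fbxo32 by 0.65 in TS. When each array was centred on its median over the genes compared, every TS minus Ct difference decreased by 0.13 (log2). Fbxo32 (0.51), Trim24 (0.56), Tob2 (0.58), Ccne2 (0.51) and the macrophage marker Adgre1 (0.47) then lay under the limit in TS, Cycs (-0.71), Aifm1 (-0.60) and the slow-fibre marker Myl3 (-0.65) lay past it downward, and the TS medians of the Atf4 list (-0.02) and the DNA repair list (-0.06) were below 0.

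The genes nearest to Cdkn1a in both differences from Ct, by straight-line distance over 10056 genes and 3 arrays, were Runx1 (distance 0.36), Myod1 (0.59) and Gadd45a (1.17). The rest of the 10154 genes compared were passed over by the start of their symbol, such as LOC, RGD, Olr, Mir or Rn. Runx1, a transcription factor of denervated muscle, read 7.99 in Ct, 11.66 in DN and 9.98 in TS. The genes nearest to Gadd45a were the myostatin antagonist Fst (0.51), the glutathione transferase Gstm2 (0.56), one of a family of close copies that may share signal, and Myod1 (0.63), with Fst at 7.61, 10.34 and 8.70 in Ct, DN and TS.

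Markers of other cells differed between the pools as well, and in whole-muscle RNA a change in the number of cells of a type and in RNA per cell cannot be told apart. The summed linear signal of 5 adipocyte markers was 851.5 in Ct, 2324 in DN and 2091 in TS. In each of DN and TS, 3 of the 5 were at least 1.5-fold higher than in Ct. Of all genes, 4.93% were higher in DN and 5.89% in TS. The sum of 8 macrophage markers was 5201, 5854 and 7411, with none of them past 1.5-fold in DN and 3 higher in TS. Only 2 were higher in TS under either centring, a trend on expression removed, quantile normalization or 32 added. Adgre1 then lay between 0.47 and 0.57. For 4 satellite cell markers the sum was 1613, 2963 and 2484, with 2 of the 4 higher in each pool. These were Myf5, by 2.00 in DN and 0.82 in TS, and Itga7, by 0.64 and 0.81. Vcam1 read 7.96 on all arrays, and Cdh15 differed by 0.11 and -0.0036. Pax7 was not analysed here. The sum of 5 endothelial markers was 4960, 3690 and 4043, and that of 5 fibroblast markers 20650, 21243 and 20016. The 6 slow-fibre markers summed to 63456, 44074 and 50417, the 5 skeletal muscle markers to 49020, 41803 and 48640, and 2 Schwann cell markers to 334.7, 393.1 and 372.8. The part of these cells in the values of the growth arrest genes was not tested.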

How the data were processed

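Soleus RNA pooled from 6 rats per group was measured on 1 array for each of Ct, DN and TS. The deposited values came from RMA in Affymetrix Expression Console (core-exon analysis), per the labels and processing notes of the submitters, and were read as log2 values. The base, the version, the annotation and the build were not given in the sources used here, and folds rest on base 2. The number of arrays limits the precision. Platform annotation gave 1 symbol to 15310 of 29170 probe sets, several to 323 and none to 13537; 15279 gene identifiers were found in the GRCr8 table, with no symbol changed. The brightest probe set by mean represented a gene, and differences of log2 values were counted at 1.5-fold among genes at or above the 30th percentile. No p-value was computed.

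The members, lists and tests were chosen with earlier results of these data known. Named genes were the members, up to 4 genes per list with the largest differences past 1.5-fold, a fixed set of relatives, and the 3 genes nearest to Cdkn1a and to Gadd45a; list genes named beyond these, including unchanged ones, were named after their values were seen. Alternatives were 3 scalings, 32 added on the linear scale, the mean of probe sets, limits of 2-fold and 3-fold, and other brightness filters; centring on the genes compared was added after seeing the data. The counting was tested on simulated data. Python 3.11.15, numpy 2.4.6, pandas 2.3.3, statsmodels 0.14.6 and matplotlib 3.10.9 were used.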

Additional observations from a re-analysis of the deposited data

How the results depend on the processing

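The counts of members past 1.5-fold stayed at 5 for DN minus Ct and 3 for DN minus TS when each array was centred on its median over all probe sets or over the genes compared, with a loess trend (span 0.3) removed, with quantile normalization, with 32 added on the linear scale, and with all probe sets of a gene averaged. For TS minus Ct the count was 4, or 5 with the loess trend removed or with quantile normalization, the added gene being Ccng1. Limits of 2-fold and 3-fold left 3 and 2 members in DN minus Ct, 2 and 1 in TS minus Ct, and 3 and 2 in DN minus TS. Cdkn1a ran from 3.83 to 3.95 in DN minus Ct and from 2.08 to 2.21 in TS minus Ct, Gadd45a from 3.11 to 3.15 and from 1.22 to 1.35, and Sesn1 in DN minus Ct from -0.94 to -0.87. The share of all genes past 1.5-fold in DN minus Ct was 7.46% with no filter and 12.7% with a filter at the 50th percentile. In TS minus Ct, centring on the genes compared moved the shares of higher and lower genes to 3.52% and 3.94%, and in DN minus TS to 4.63% and 3.76%. Among list genes, Cd82 in DN minus Ct was at 0.58, under the limit, with each array centred over all probe sets, and with 32 added the DN minus Ct differences of Cd82, Dcxr, Tob2, Cdkn3, Ccnb1 and Pik3ip1 (0.58, -0.56, -0.58, -0.50, -0.41 and 0.56) and the TS minus Ct difference of Ccne2 (0.46) were under it. By its construction that addition shrinks the differences of dim genes. No paired analysis was possible because each group has 1 array. No array could be left out for the same reason.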

Other observations

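Ccnb1, the cyclin of entry into mitosis, read 6.14 in Ct, 5.49 in DN and 7.24 in TS, past 1.5-fold in both comparisons with Ct. Cdkn3, a phosphatase of cyclin-dependent kinases, read 6.24 in Ct, 5.46 in DN and 6.81 in TS, a difference of -0.79 for DN and of 0.57, within 1.5-fold, for TS. Top2a, a topoisomerase of dividing cells, read 7.19, 6.74 and 7.77, within 1.5-fold of Ct in both pools. Against TS, DN was at -1.75 for Ccnb1, -1.35 for Cdkn3 and -1.03 for Top2a. Ccne2, a cyclin of the start of DNA synthesis, was higher by 0.64 in TS and at 0.11 in DN, and its TS difference was 0.51, under the limit, with arrays centred over the genes compared. Values of Ccnb1 and Cdkn3 in DN lay below the brightness limit of 5.72. These genes were named after their values were seen, and with 1 pool a group the differences were not tested.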
